A study of Homo sapiens with 18 samples.

Results

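Keratins are the intermediate filament proteins of epithelial cells. This report follows 10 keratin genes through an MLL3 knockdown in ZR751 cells, an established estrogen receptor positive (ER+) human breast cancer line also written ZR75-1. The 10 genes were chosen by symbol and found by their RefSeq identifiers among the 23500 rows of the deposited expression table. They are the simple, or luminal, keratins KRT7, KRT8, KRT18 and KRT19, the basal keratins KRT5, KRT14, KRT15 and KRT17, and KRT80 and KRT81. The study compared cells stably transduced with a lentiviral shRNA against MLL3 (ZR751shMLL3) with cells carrying a control shRNA against luciferase (ZR751shLucif), both on the ZR751 background and sorted for GFP. MLL3, encoded by KMT2C, is a histone methyltransferase that deposits H3K4me1, the mark of enhancers. RNA-seq, and ChIP-seq of H3K4me1, ERα and SP1, had 2 libraries per cell line. Each cell line carried 1 hairpin, so an effect of MLL3 loss and an effect of that hairpin or that transduced line cannot be told apart.

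Keratin filaments are built from pairs of 1 acidic type I chain and 1 basic type II chain. In simple epithelia such as the luminal layer of the breast, the type II keratins KRT8 and KRT7 pair with the type I keratins KRT18 and KRT19, whereas the basal layer uses KRT5 with KRT14, together with KRT15 and KRT17. Pathologists use this division to tell luminal from basal breast tumors. Type II genes lie together on chromosome 12 and type I genes on chromosome 17, except for KRT18, which sits beside KRT8 at the end of the type II cluster.

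KMT2C, the targeted gene, had 2.34 and 6.77 FPKM in ZR751shLucif and 1.07 and 2.69 FPKM in ZR751shMLL3. FPKM are fragment counts scaled to transcript length and library size, so levels can be compared between genes. The lowest ZR751shLucif library lay below the highest ZR751shMLL3 library. The log2 fold change was -1.02 (SE 0.54), with an adjusted p of 0.629 by limma. ZR751shLucif replicate 1 stood apart from the other libraries, correlating with them at 0.900 to 0.907 across 11134 genes, against 0.947 to 0.969 among the other three. Values that rest on it are given with and without it. FPKM carry no read depth, so the precision behind single values is unknown.

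The cells had the keratin profile of luminal epithelium in every library. KRT8, KRT18 and KRT19 made up 99.3% and 98.9% of the FPKM of all 52 keratin genes in ZR751shLucif and 99.5% and 99.4% in ZR751shMLL3. The 4 basal keratins together held 0.0719% and 0.134% in ZR751shLucif and 0.0786% and 0.0676% in ZR751shMLL3, nearly all of it KRT15. TP63, the transcription factor that defines basal cells, did not exceed 0.0845 FPKM, and VIM, the intermediate filament of mesenchymal cells, did not exceed 0.372 FPKM. Of 12 basal or myoepithelial markers 5 reached the level needed for testing. The summed level of the 12 was 39.7 and 34.5 FPKM in ZR751shLucif and 48.4 and 42.5 FPKM in ZR751shMLL3. Most of it was ITGB4, with 24.5 and 22.1 FPKM in ZR751shLucif and 35.2 and 28.8 FPKM in ZR751shMLL3. CNN1 was listed at 0 in 3 of the 4 libraries. Of the 5 tested, 3 were higher in both ZR751shMLL3 libraries and 1 was lower in both. Their median log2 fold change was 0.27, against -0.10 over all genes tested. By limma 0 of the 5 passed, adjusted or unadjusted.

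None of the keratins passed the test of ZR751shMLL3 against ZR751shLucif. Of the 10 members, 7 had a mean above 1 on the log2(FPKM + 0.5) scale and were tested with limma, and 0 of these 7 passed an adjusted p of 0.05, with adjusted p from 0.418 to 0.989. Among all 11134 genes tested, 0% passed as higher and 0.00898% as lower, the latter being 1 gene. At an unadjusted p of 0.05, 1 of the 7 keratins passed, KRT7, which was lower, against 3.67% of all genes higher and 4.31% lower. By the plain order of the libraries, 1 of the 7 was higher in both ZR751shMLL3 libraries, 2 were lower in both and 4 overlapped, where 17.6% of all genes were higher and 25.3% lower in this sense. The median log2 fold change was 0.35 over the 4 simple keratins, against -0.10 over all genes tested, and it was 1.08 without ZR751shLucif replicate 1 and -0.42 without ZR751shLucif replicate 2. The median of -0.01 over the 4 basal keratins carries little information, since 3 of them failed the filter and the pseudocount holds their differences near 0.

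**Figure D1:**
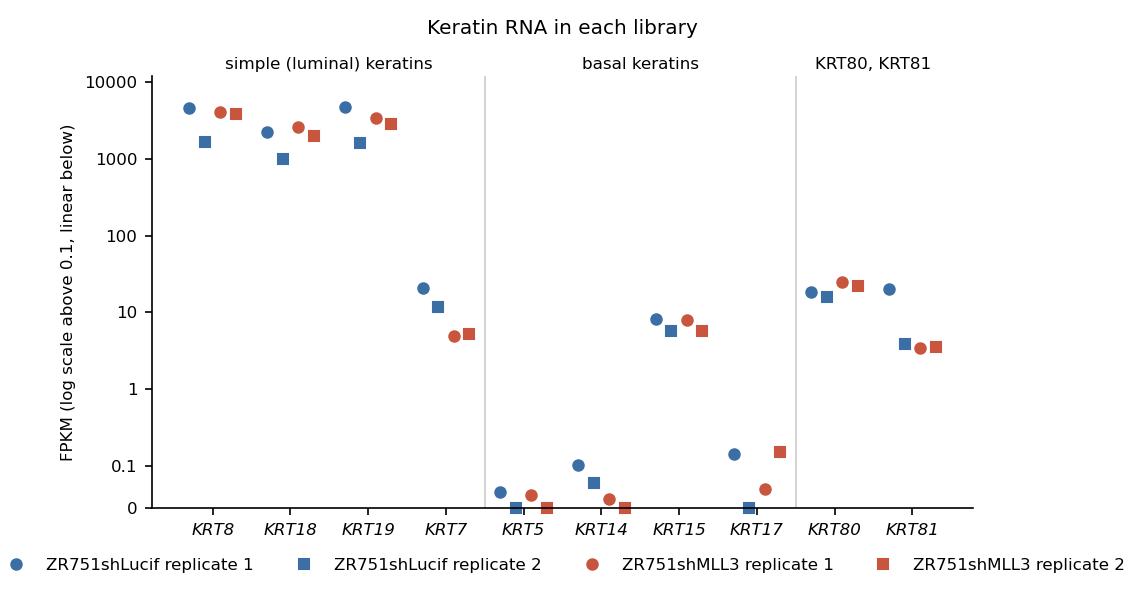
FPKM of the 10 keratins in each RNA-seq library (vertical axis logarithmic above 0.1 and linear below). Each point is 1 library, blue for ZR751shLucif and red for ZR751shMLL3, circles for replicate 1 and squares for replicate 2. KRT8, KRT18 and KRT19 lie at 1002 FPKM or above in every library, while KRT5, KRT14 and KRT17 do not exceed 0.152 FPKM.

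KRT8, the principal type II chain of simple epithelia, was the highest type II keratin. It had 4573 and 1652 FPKM in ZR751shLucif and 4114 and 3805 FPKM in ZR751shMLL3. It ranked 12 and 21 among all genes in the ZR751shLucif libraries and 5 in both ZR751shMLL3 libraries. The ZR751shMLL3 libraries lay between the ZR751shLucif libraries, and the log2 fold change was 0.53 (SE 0.49, adjusted p of 0.733 by limma). Without ZR751shLucif replicate 1 it was 1.26, and without ZR751shLucif replicate 2, the lowest library, it was -0.21.

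KRT18, the type I partner of KRT8, had 2261 and 1002 FPKM in ZR751shLucif and 2607 and 1988 FPKM in ZR751shMLL3. The groups overlapped, although ZR751shMLL3 replicate 1 lay above both ZR751shLucif libraries, and the log2 fold change was 0.60 (SE 0.43, adjusted p of 0.682 by limma). Without ZR751shLucif replicate 1 this was 1.18, and without ZR751shLucif replicate 2 it was 0.01. The ratio of KRT8 to KRT18 was steadier than either gene, at 2.02 and 1.65 in ZR751shLucif and 1.58 and 1.91 in ZR751shMLL3, which overlapped.

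KRT19, the smallest keratin and one without a tail domain, was the highest type I keratin. It had 4809 and 1591 FPKM in ZR751shLucif and 3385 and 2862 FPKM in ZR751shMLL3, with ranks from 7 to 24 among all genes. The groups overlapped, and the log2 fold change of 0.17 (SE 0.52, adjusted p of 0.923 by limma) was 0.97 without ZR751shLucif replicate 1 and turned to -0.63 without ZR751shLucif replicate 2 and to -0.09 when the trend with GC content was removed. Relative to KRT8 in the same library, KRT19 was 1.05 and 0.963 in ZR751shLucif and 0.823 and 0.752 in ZR751shMLL3. Both ZR751shMLL3 libraries were lower, with an exact permutation p of 0.3333 (two-sided), the smallest that 2 libraries against 2 can give. KRT8, KRT18 and KRT19 have processed pseudogenes that can share their reads.

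KRT7, a type II keratin of ductal epithelium, was far less abundant than KRT8 and showed the clearest difference among the members. It had 20.5 and 11.8 FPKM in ZR751shLucif and 4.89 and 5.22 FPKM in ZR751shMLL3, so that both ZR751shMLL3 libraries lay below both ZR751shLucif libraries. The mean level in ZR751shMLL3 was 0.313 of that in ZR751shLucif, 5.05 ± 0.233 against 16.1 ± 6.17 FPKM (SD, n = 2). In bulk RNA, fewer cells with KRT7 and less KRT7 per cell cannot be told apart. The log2 fold change was -1.53 (SE 0.34) and the adjusted p 0.418 by limma. It remained negative under every alternative tried, from -1.92 without ZR751shLucif replicate 2 to -1.14 without ZR751shLucif replicate 1. Without ZR751shLucif replicate 2, the only control was replicate 1, the library that stood apart. With 2 libraries in each cell line, the test was passed only with 1 surrogate variable in the limma model, at an adjusted p of 0.0115. In that model 473 of the 11134 genes tested passed, against 1 without the variable. That variable is fitted to the residuals and leaves 1 residual degree of freedom, and it takes up residual variance by construction.

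Scaled to the other simple keratins of the same library, KRT7 was lower in ZR751shMLL3 against either ZR751shLucif library. For each 1000 FPKM of KRT8 there were 4.48 and 7.12 FPKM of KRT7 in ZR751shLucif and 1.19 and 1.37 FPKM in ZR751shMLL3. Against KRT18 the corresponding values were 9.06 and 11.7 in ZR751shLucif and 1.87 and 2.62 in ZR751shMLL3. The ratio of KRT7 to KRT80, its neighbor on chromosome 12, was 1.13 and 0.735 in ZR751shLucif and 0.197 and 0.234 in ZR751shMLL3. In each of these ratios both ZR751shMLL3 libraries were the lowest.

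**Figure D2:**
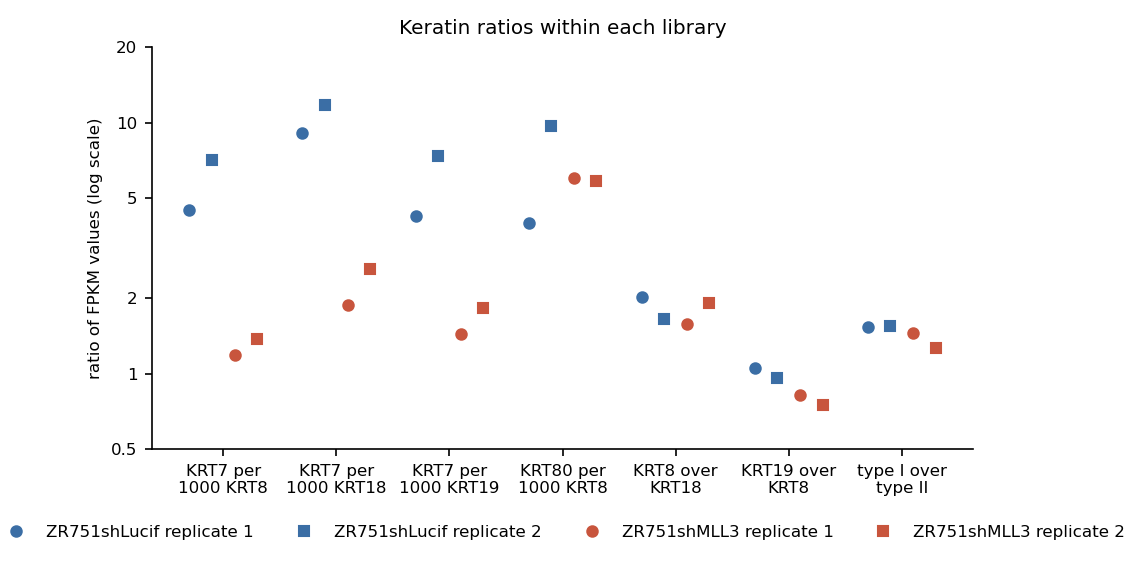
Ratios of keratin FPKM within each RNA-seq library (logarithmic vertical axis); each point is 1 library. KRT7 relative to KRT8, KRT18 or KRT19 is lower in both ZR751shMLL3 libraries, while KRT8 over KRT18 overlaps between the cell lines.

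The balance of type I and type II totals was compared next. The sum of 27 type I genes over that of 25 type II genes was 1.53 and 1.55 in ZR751shLucif and 1.45 and 1.27 in ZR751shMLL3. Both ZR751shMLL3 libraries were lower. Keratins as a whole took 1.67% and 0.881% of all FPKM in ZR751shLucif and 1.94% and 1.70% in ZR751shMLL3. Both ZR751shMLL3 shares were higher, although 1.70% and 1.67% lay much closer together than the ZR751shLucif libraries did.

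Among the basal keratins, KRT15, a type I keratin of basal and progenitor cells, was the only one above 1 FPKM. It had 8.15 and 5.71 FPKM in ZR751shLucif and 7.88 and 5.73 FPKM in ZR751shMLL3. The cell lines overlapped almost completely, and the log2 fold change was -0.02 (SE 0.32, adjusted p of 0.989 by limma). Its sign followed the processing, at 0.06 with libraries centered on their medians.

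The other basal keratins were at the floor in both cell lines. KRT5, the type II keratin of basal cells, had 0.0394 FPKM in ZR751shLucif replicate 1 and 0.0312 FPKM in ZR751shMLL3 replicate 1, and was listed at 0 in both replicates 2. KRT14, its type I partner, had 0.101 and 0.0589 FPKM in ZR751shLucif, 0.0217 FPKM in ZR751shMLL3 replicate 1 and was listed at 0 in replicate 2. KRT17, a type I keratin of basal and stressed epithelium, was listed at 0 in ZR751shLucif replicate 2 and had 0.142, 0.0462 and 0.152 FPKM in the other three libraries. These 3 genes failed the filter on low values and were not tested, and KRT14, KRT16 and KRT17 have near-identical stretches between which reads can be split.

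KRT80 and KRT81 flank KRT7 in the type II cluster, and neither passed the test. KRT80, a type II keratin of the cell periphery near desmosomes, had 18.2 and 16.0 FPKM in ZR751shLucif and 24.8 and 22.3 FPKM in ZR751shMLL3, higher in both ZR751shMLL3 libraries. The log2 fold change was 0.45 (SE 0.27, adjusted p of 0.647 by limma), and it stayed between 0.30 and 0.54 under the alternatives.

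KRT81, a hair keratin also transcribed in breast cancer cells, had 19.9 and 3.87 FPKM in ZR751shLucif and 3.46 and 3.56 FPKM in ZR751shMLL3. Only ZR751shLucif replicate 1 was high. The log2 fold change of -1.24 (SE 0.68, adjusted p of 0.631 by limma) fell to -0.13 without that library and was -2.35, with an adjusted p of 0.00526, when ZR751shLucif replicate 2 was left out instead. With 1 surrogate variable in the limma model the adjusted p was 0.0219, with the same limit as for KRT7. KRT81 overlaps KRT86 on the opposite strand and resembles KRT83 in sequence, so its reads may be shared with them.

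**Figure D3:**
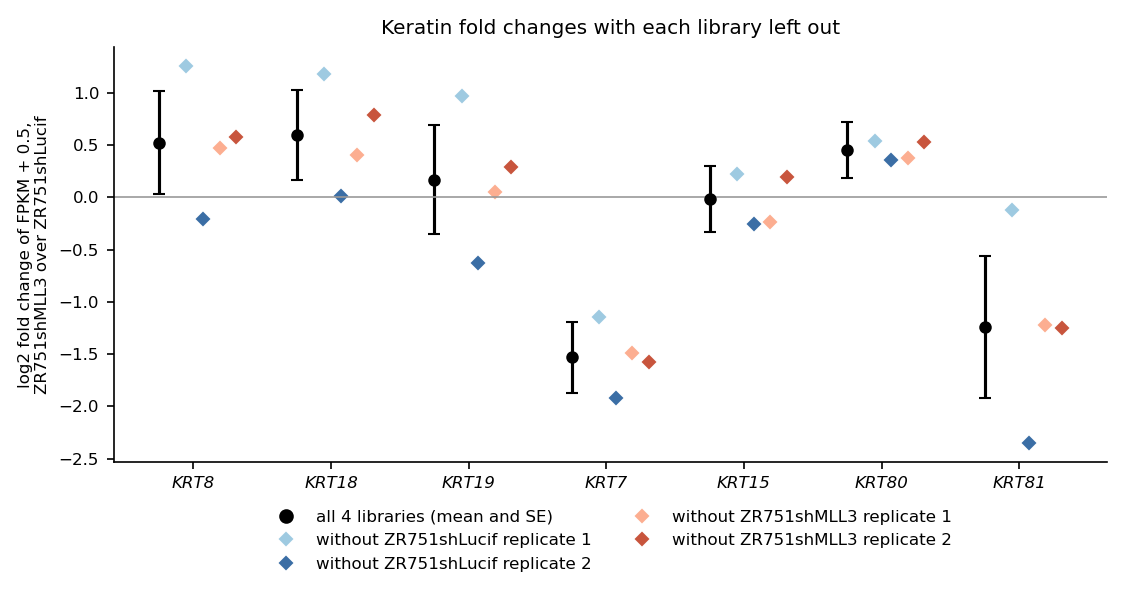
Log2 fold change of FPKM + 0.5, ZR751shMLL3 over ZR751shLucif, for the 7 keratins tested (black, mean and SE from limma, n = 2 per cell line) and after leaving out each library (colored diamonds). KRT7 stays below 0 and KRT80 above 0 in all of them, whereas KRT8 and KRT19 change sign without ZR751shLucif replicate 2 and KRT81 moves to -0.13 without ZR751shLucif replicate 1.

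The genes whose profile over the 4 libraries lay nearest to a keratin were found by the Euclidean distance between log2 values centered per gene, over 11133 other genes. For KRT8 these were PYCARD, RAB6B and SULF2 (distances 0.16, 0.19 and 0.19), and KRT18 came 21st. For KRT18 they were EFHD2, BMERB1 and TBC1D17, and for KRT19 ERICH1, TBX1 and CTSZ. For KRT81 they were SNRPF, a core protein of the spliceosome, RPL28, a ribosomal protein, and RPSAP9. RPL28 had 3723 FPKM in ZR751shLucif replicate 1 and 719, 652 and 737 FPKM in the other three, so that, as for KRT81, only ZR751shLucif replicate 1 was high. With 4 libraries, many genes share any given profile.

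Of the 44 other genes with a keratin symbol, 19 were listed at 0 in all 4 libraries and only KRT10 was high enough to be tested. KRT10, the type I keratin of differentiating epidermis, had 15.0 and 8.64 FPKM in ZR751shLucif and 7.55 and 10.4 FPKM in ZR751shMLL3, which overlapped (log2 fold change -0.35, SE 0.36, adjusted p of 0.760 by limma). The next 5 by mean level were KRT23, KRT4, KRT83, KRT16 and KRT32. KRT4, a type II keratin of non-cornified stratified epithelia, had 2.18 and 0.301 FPKM in ZR751shLucif and 0.0566 and 0.217 FPKM in ZR751shMLL3. KRT23 reached 1.68, KRT83 0.852, KRT16 0.377 and KRT32 0.347 FPKM in their highest libraries.

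Keratin filaments are anchored to desmosomes and cross-linked by plakins. Of 15 such partners 14 were tested and 0 passed an adjusted p of 0.05 by limma, while 5 passed an unadjusted p of 0.05, all as higher, where 3.67% of all genes passed as higher and 4.31% as lower. These were PLEC, PPL, EVPL, EPPK1 and PKP3, the first 4 being plakins. The 5 became 2 with a replicate block in the model and 0 with the GC trend removed. They stayed 5 with either other pseudocount, and 5 of the 11 then tested with the stricter filter. They were 6 without a filter, with libraries centered or with 1 surrogate variable, where 4.94%, 5.65% and 10.2% of all genes passed as higher. As lower, 1 partner passed without a filter and 2 with 1 surrogate variable. With 1 surrogate variable 1 of the 14 also passed an adjusted p of 0.05 by limma, with the same limit as for KRT7. With a library left out, the median log2 fold change of the 14 ran from 0.13 to 0.38, against 0.19 with all libraries. By library order 6 of the 14 were higher and 3 lower, against 17.6% and 25.3% of all genes. PKP3, a plakophilin of the desmosomal plaque, had the largest log2 fold change among the partners tested, with 15.9 and 18.2 FPKM in ZR751shLucif and 35.0 and 33.9 FPKM in ZR751shMLL3 (log2 fold change 1.00, SE 0.26, adjusted p of 0.490). PLEC, which encodes plectin, had 32.8 and 34.4 FPKM in ZR751shLucif and 56.1 and 59.3 FPKM in ZR751shMLL3 (log2 fold change 0.77, SE 0.26, adjusted p of 0.595). EPPK1, epiplakin, had 5.77 and 9.10 FPKM against 12.6 and 15.5 FPKM (log2 fold change 0.90, adjusted p of 0.604).

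In the other direction the partners with the largest differences were TCHP, the keratin-binding protein trichoplein, and DSC2, a desmosomal cadherin. TCHP had 9.33 and 7.84 FPKM in ZR751shLucif and 5.46 and 5.52 FPKM in ZR751shMLL3 (log2 fold change -0.60, adjusted p of 0.620 by limma). DSC2 had 6.96 and 12.5 FPKM against 6.07 and 6.92 FPKM (log2 fold change -0.50, adjusted p of 0.671 by limma), and its log2 fold change was -0.90 without ZR751shLucif replicate 1, -0.10 without ZR751shLucif replicate 2 and -0.15 with the GC trend removed. The 5 partners that passed the unadjusted p had a median transcript GC content of 65.2%, against 48.4% over the genes tested. With the GC trend removed 0 of the 14 partners passed an unadjusted p of 0.05, and the log2 fold change of PKP3 was 0.67 and that of PLEC 0.44. Filament proteins of other cells were near 0, DES being listed at 0 throughout, GFAP not above 0.0591 FPKM and NES not above 0.414 FPKM.

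H3K4me1 peaks were counted in both keratin clusters on hg19 (GRCh37). The type II cluster runs from KRT80 to KRT18, at chr12:52562780-53346690, and the type I cluster from KRT24 to KRT17, at chr17:38854243-39781094. Peaks were taken per library at a cut-off of 0.01 on the false discovery rate (FDR) that the authors' peak caller gave. They are not the paper's peak sets, which were selected by reproducibility between replicates and taken from pooled reads. At this cut-off the type II cluster held 63 and 75 peaks in ZR751shLucif and 13 and 55 in ZR751shMLL3. The type I cluster held 71 and 81 in ZR751shLucif and 10 and 54 in ZR751shMLL3. Both ZR751shMLL3 libraries were lower in both clusters. The difference of the means was -35 peaks in the type II cluster, 34 ± 29.7 against 69 ± 8.49 (SD, n = 2), and -44 in the type I cluster, each with an exact permutation p of 0.3333 (two-sided), the smallest possible here.

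The whole lists differed in the same direction, with 141158 and 192201 peaks at this FDR in ZR751shLucif and 28599 and 109586 in ZR751shMLL3. As a share of its own list, the type II cluster held 0.0446% (95% Wilson interval 0.0349 to 0.0571) and 0.0390% (0.0311 to 0.0489) of the peaks in ZR751shLucif, and 0.0455% (0.0266 to 0.0778) and 0.0502% (0.0386 to 0.0653) in ZR751shMLL3. The type I cluster held 0.0503% and 0.0421% in ZR751shLucif and 0.0350% and 0.0493% in ZR751shMLL3. Both ZR751shMLL3 shares were above both ZR751shLucif shares in the type II cluster, and all 4 intervals overlapped in each cluster. The intervals cover counting error only.

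Among the 50000 top-ranked peaks of each library, which sets the lists to 1 length, the type II cluster held 18 and 20 in ZR751shLucif and 21 and 17 in ZR751shMLL3. The type I cluster held 25 and 19 in ZR751shLucif and 24 and 31 in ZR751shMLL3. Neither cluster was lower in both ZR751shMLL3 libraries at this length. In the full lists, of 299979 to 300000 peaks, the type II cluster held 138 and 123 in ZR751shLucif and 114 and 125 in ZR751shMLL3, which overlapped. The type I cluster held 141 and 127 in ZR751shLucif and 122 and 116 in ZR751shMLL3, lower in both ZR751shMLL3 libraries (exact permutation p of 0.3333, two-sided). Peak density in the clusters was 1.52 to 1.95 times that of the genome for type II and 1.15 to 1.65 times for type I at the FDR of 0.01.

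**Figure D4:**
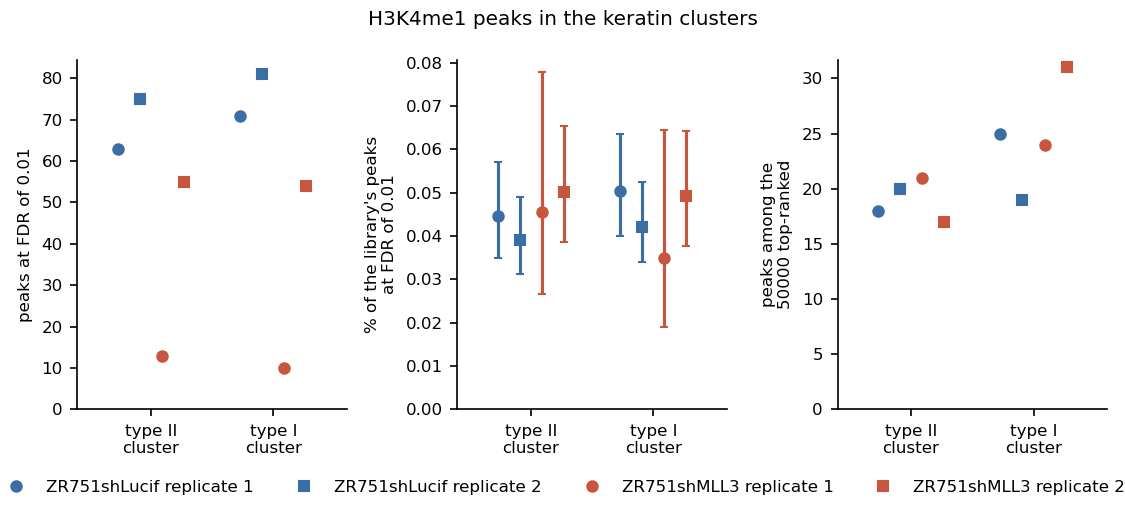
H3K4me1 peaks in the type II and type I keratin clusters per library, as counts at an FDR of 0.01 (left), as a percentage of the library's own list with 95% Wilson intervals (middle) and as counts among its 50000 top-ranked peaks (right). Counts at the FDR of 0.01 are lower in both ZR751shMLL3 libraries, while the intervals of the shares and the top-ranked counts overlap between the cell lines.

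At the FDR of 0.01 peaks were denser in the end segments of the type II cluster than over its interior as a whole. The interior was uneven, and peaks gathered there too, between KRT5 and KRT8. This group ran from 628 to 662 kb past the cluster start in ZR751shLucif replicate 1 and from 628 to 659 kb in replicate 2. From KRT80 to KRT81 there were 21.2 and 28.6 peaks per 100 kb in ZR751shLucif and 7.34 and 22.0 in ZR751shMLL3 at the FDR of 0.01. The interval of KRT8 and KRT18 held 21.5 and 23.3 per 100 kb in ZR751shLucif and 3.59 and 14.4 in ZR751shMLL3. The interior from KRT83 to KRT78, which includes KRT5 and the KRT6 genes, held 4.49 and 4.11 in ZR751shLucif and 0.374 and 3.37 in ZR751shMLL3. In every library the interior was thus the least dense of these segments. On chromosome 17, at the FDR of 0.01, KRT13 to KRT19 held 25.6 and 18.3 per 100 kb in ZR751shLucif and 0 and 7.32 in ZR751shMLL3. From KRT9 to KRT17, where KRT14 lies, there were 3.39 and 3.39 and then 0 and 1.69. Of the top-ranked peaks KRT13 to KRT19 held 7.32 and 3.66 per 100 kb in ZR751shLucif and 0 and 3.66 in ZR751shMLL3. KRT9 to KRT17 held 1.69 and 0, then 0 and 0.

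Peaks found in both replicates were 46 of the 63 of ZR751shLucif replicate 1 in the type II cluster (73.0%) and 8 of the 13 of ZR751shMLL3 replicate 1 (61.5%). In the type I cluster they were 50 of 71 (70.4%) and 7 of 10 (70.0%). Over the genome the corresponding shares were 72.0% and 53.5%.

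**Figure D5:**
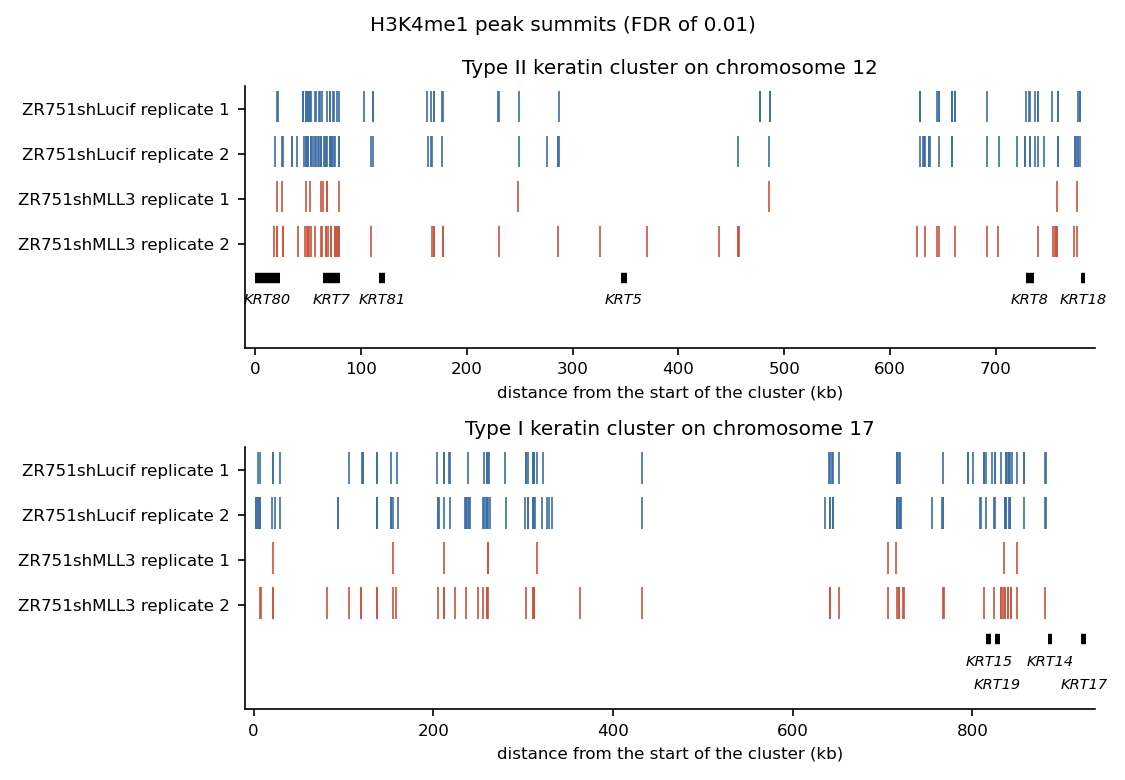
Summits of H3K4me1 peaks at an FDR of 0.01 along both keratin clusters, by distance from the start of the cluster in kb. Each vertical line is 1 peak, each row 1 library, and black boxes mark the keratins followed here. Peaks gather around KRT7, around KRT8 and KRT18, and around KRT15 and KRT19, and are sparse at KRT5 and KRT17. Away from the marked keratins, they also lie between KRT24 and KRT40 in the type I cluster and between KRT5 and KRT8 in the type II cluster.

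Peaks at single keratins were counted within 10 kb of the gene. KRT7 had the most, with 12 and 20 peaks at the FDR of 0.01 in ZR751shLucif and 5 and 14 in ZR751shMLL3. Among the 50000 top-ranked peaks it had 2 and 8 in ZR751shLucif and 7 and 4 in ZR751shMLL3, which overlapped between the cell lines. KRT8 had 6 and 8 peaks at the FDR of 0.01 in ZR751shLucif and 0 and 1 in ZR751shMLL3. Of the top-ranked peaks KRT8 held 2 in ZR751shLucif replicate 1 and 0 in the other three libraries.

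KRT19 had 7 and 7 peaks at the FDR of 0.01 in ZR751shLucif and 1 and 8 in ZR751shMLL3, and 2 and 2 against 1 and 7 of the top-ranked peaks. Its window overlaps that of KRT15, which had 7 and 5 peaks in ZR751shLucif and 0 and 2 in ZR751shMLL3. KRT80 had 2 and 3 peaks in ZR751shLucif and 2 and 5 in ZR751shMLL3. KRT18 had 3 and 6 peaks in ZR751shLucif and 1 and 2 in ZR751shMLL3. Of the top-ranked peaks KRT15 had 2 and 1 in ZR751shLucif and 0 and 1 in ZR751shMLL3. KRT80 had 0 and 0 of them in ZR751shLucif and 2 and 2 in ZR751shMLL3, and KRT18 had 0 and 0, then 1 and 0.

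The basal keratins near 0 FPKM had few peaks. KRT5 and KRT17 had 0 at the FDR of 0.01 in every library, KRT17 also having 0 in the full lists. KRT14 had 2 and 2 in ZR751shLucif and 0 and 1 in ZR751shMLL3, and the hair keratin KRT81 had 2 and 2 in ZR751shLucif and 0 and 1 in ZR751shMLL3.

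SP1 binds GC boxes in promoters. At the FDR of 0.01 the SP1 lists of ZR751shLucif were empty, while those of ZR751shMLL3 held 204178 and 12065 peaks. Ranks in the full lists are therefore given instead. KRT8 and KRT19 were the members with an SP1 summit among the 50000 top-ranked peaks within 1 kb of the start site, in ZR751shMLL3 only. The share of all genes with such a summit was not counted, so whether this is particular to these keratins was not tested. At KRT8 the best summit lay 20 bp past the start site at rank 22155 in ZR751shMLL3 replicate 1, and 223 bp past it at rank 12225 in replicate 2. In ZR751shLucif replicate 1 it lay 74 bp before the start site at rank 61620, and replicate 2 had none. At KRT19 ZR751shMLL3 replicate 2 had a summit 93 bp past the start site at rank 3090, ZR751shLucif had summits at ranks 76091 and 272761, and ZR751shMLL3 replicate 1 had none. KRT7 had no SP1 summit within 1 kb of its start in any library. The ZR751shMLL3 replicates thus differed from each other at KRT19, and their full lists held 209985 and 300000 peaks.

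ERα is the estrogen-activated receptor of these cells, and its lists differed in length from 764 to 98579 peaks at the FDR of 0.01. Among the members, the highest-ranked ERα peak lay 7849 bp upstream of KRT19, between KRT19 and LINC00974 and outside annotated genes. In ZR751shLucif replicate 2 its summit had rank 416, within the FDR of 0.01. In ZR751shMLL3 the nearest summits lay 99 bp away at rank 139369 in replicate 1 and 275 bp away at rank 155911 in replicate 2, and ZR751shLucif replicate 1 had none within 1 kb. The peak was therefore strong in 1 library and not repeated in the other library of the same cell line. The 201 bases centered on that summit, chr17:39692309-39692509 of GRCh37 on the plus strand, are shown with the estrogen receptor motif GGTCA in capitals, which begins 6 bases before the summit.
ERα site upstream of KRT19: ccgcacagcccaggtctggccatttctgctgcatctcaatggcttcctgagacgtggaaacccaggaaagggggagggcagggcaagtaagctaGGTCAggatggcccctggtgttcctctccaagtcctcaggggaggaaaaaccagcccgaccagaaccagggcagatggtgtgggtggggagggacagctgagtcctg

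The full palindrome GGTCANNNTGACC was not in this window. GGTCA on either strand occurred in 37.6%, and the palindrome in 4.29%, of the 3797 ERα peaks of that library at the FDR of 0.01, cut to the same length. At KRT7 ERα peaks at the FDR of 0.01 numbered 3 in ZR751shLucif replicate 1 and 0 in the other three libraries, the best at rank 6109 lying 4062 bp past the start site. Within 1 kb of a start site, the only ERα peak at this FDR was at KRT5 in ZR751shLucif replicate 1, at rank 77124.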

How the data were processed

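RNA-seq values were deposited by the authors as FPKM per RefSeq gene, 1 column per library. They followed fastq-mcf, TopHat2 2.0.13, Cufflinks 2.2.1 and Cuffnorm 2.2.1, which scales the libraries, on hg19. FPKM totals still differed, at 701359 and 487395 in ZR751shLucif and 524210 and 511541 in ZR751shMLL3. Keratin shares of all FPKM are taken over these totals. ChIP-seq reads were aligned by the authors with BWA 0.7.5a-r405 and stripped of duplicates, and SPP called peaks per library against input. The deposited lists give an SPP signal, here used for rank, and the −log10 of the authors' FDR, and were relaxed and limited by rank. Depth per gene or peak is unknown.

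Rows were named through RefSeq (97.4% of 23500 matched). FPKM were tested with limma 3.58.1 in R 4.3.3 on log2(FPKM + 0.5), which understates changes of low genes, for genes with a mean above 1, without covariates, with Benjamini-Hochberg adjustment over 11134 genes. The study removed surrogate variables, of unstated number, and this is an alternative. Libraries were grouped by their titles. Peaks were counted by summit with Python 3.11.15. Clusters were runs of keratin genes with gaps under 500 kb, and start sites came from MANE Select transcripts in GENCODE on GRCh37. Cluster counts were compared with exact permutation tests. Scripts were tested on simulated data. Same-numbered libraries deviated together at a correlation of 0.0374 across genes, so no pairing was assumed. Per the paper's methods replicates are biological, with ChIP done in 1 experiment, and p-values measure the spread between these libraries.

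The members and gene lists were chosen with earlier results of these data known. The text names KMT2C, all members, the 6 highest other keratins, the 2 filament partners with the largest change each way, VIM, DES, GFAP and NES, and the 3 genes nearest in profile to KRT8, KRT18, KRT19 and KRT81. PLEC, PPL, EVPL and ITGB4 were named after their values were seen. Luminal, basal, fibroblast and squamous marker lists were checked, and TP63, CNN1 and COL1A1 were named from them. Alternatives were other pseudocounts (0.1 and 1), filters, centering, GC trend, replicate block, 1 surrogate variable (first principal component of the residuals, in place of the sva package) and each library left out, and, for peaks, an FDR of 0.001, 50000 top-ranked peaks, every listed peak, an overlap of 1 bp and bounds extended by 50 kb. Input libraries were not used here. Promoter sequences are not reported here.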

Additional observations from a re-analysis of the deposited data

How the results depend on the processing

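Genes called among all tested numbered 1 (limma, adjusted p of 0.05), 0 without a filter, 473 with 1 surrogate variable (239 higher, 234 lower) and 2 to 1269 with a library left out, the most without ZR751shLucif replicate 2. Keratins called numbered 0, and 2 (KRT7 and KRT81, both lower) with 1 surrogate variable or without ZR751shLucif replicate 2, so 0 to 2 with a library left out. In those fits the lone library of a group is taken to vary like the other group. A replicate block gave 33 calls over all genes (14 higher, 19 lower) and 0 keratins, but the numbers do not pair the libraries. The simple keratin median ran from -0.42 to 1.08 and the basal keratin median (3 of its 4 genes failed the filter) from -0.17 to 0.13 with a library left out, and KMT2C from -1.70 to -0.35.

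Sign turned for KRT15 with centering (0.061) and without ZR751shLucif replicate 1 or ZR751shMLL3 replicate 2 (-0.26 to 0.22 with a library left out), for KRT10 without ZR751shLucif replicate 1 (-0.73 to 0.035), for KRT8 (-0.21 to 1.26) and KRT19 (-0.63 to 0.97) without ZR751shLucif replicate 2, and for KRT19 with the GC trend removed (-0.094). Among the 50000 top-ranked H3K4me1 peaks the difference was 0 in the type II cluster and 5.5 peaks in the type I cluster (exact permutation p of 1 and 0.6667), where at the FDR of 0.01 it was -35 and -44. The other peak alternatives gave fewer peaks in ZR751shMLL3 in both clusters. KMT2C, KRT15 and KRT81 dropped out under the stricter filter. The cause of these changes was not tested.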

Other observations

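Markers of other lineages were sparse in these cells. Of 8 fibroblast markers only COL1A1 was tested, with 13.1 to 17.8 FPKM over the 4 libraries, and it overlapped between the cell lines. Of 8 squamous or cornified markers 1 was tested, and their summed level was 3.13 and 7.47 FPKM in ZR751shLucif and 14.1 and 7.32 FPKM in ZR751shMLL3. All 11 luminal markers were tested and 0 passed an adjusted p of 0.05 by limma, nor did any pass an unadjusted p of 0.05. By library order 1 of the 11 was higher in ZR751shMLL3 and 3 were lower, against 17.6% and 25.3% of all genes. Their median log2 fold change was -0.03, against -0.10 over all genes tested. FOXA1, a pioneer factor of luminal cells chosen here after its values were seen, was among the lower ones. It had 173 and 102 FPKM in ZR751shLucif and 76.8 and 93.7 FPKM in ZR751shMLL3 (log2 fold change -0.65, adjusted p of 0.629 by limma).

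KRT7 was left out of the fixed list for profile likeness and was added after its values were seen. The 3 genes nearest to it were CD44, RCN1 and TDO2 (distances 0.16, 0.16 and 0.21 on the log2 scale). CD44, a hyaluronan receptor, had 23.4 and 14.1 FPKM in ZR751shLucif and 6.30 and 5.68 FPKM in ZR751shMLL3. By the same measure KRT81 came 1392nd and KRT8 9684th of 11133 genes.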
